A study of Mus musculus with 18 samples.

Results

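The genes of the mouse T-cell receptor alpha locus were followed through DN3 and DP thymocytes of grafted thymi. Members were all genes whose symbol in the authors' deposited table is Trac or starts with Trav or Traj and a number, joined by Ensembl identifier to the raw counts. This gave 160 of the 22619 genes counted: 108 Trav, 51 Traj and Trac. RNA was sequenced from DN3 and DP cells sorted by flow cytometry from wild-type thymi that had been transplanted 28 days earlier, captured on oligo-dT beads and made into Pico Nextera libraries, per the labels' protocols. The 18 libraries formed 4 groups: DN3 turnover (4 libraries), DN3 autonomy (5), DP turnover (4) and DP autonomy (5). As background, turnover is the usual name for a thymus whose cells are replaced by incoming progenitors, and autonomy for a thymus that maintains T-cell production from its own cells. All groups share the wild-type donor thymus and the time after grafting, and the labels state no host, strain, sex or age. Nor do they say whether the libraries of a group came from separate animals, so a p-value reflects only how these libraries vary, which may be technical.

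A T-cell receptor alpha chain is encoded by a variable (Trav), a joining (Traj) and the constant (Trac) segment, and the Rag recombinase joins a Trav to a Traj mainly at the DP stage, after the beta chain has been made at the DN3 stage. As background, first joins tend to use the Trav nearest the Traj array and the Traj nearest the Trav array, and later rounds on the same chromosome replace them with more distal Trav and more 3' Traj. The delta chain genes lie inside the same locus between the Trav and the Traj, and Trav whose name carries a dv suffix can also be joined in delta chains.

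All 160 members lie on the plus strand of chromosome 14 in GRCm38. Sorted by start, the Trav were split into 3 groups of 36: a distal group at chr14:52427928-53008098 (Trav1 to Trav6d-7), a central group at chr14:53032848-53430377 (Trav13d-3 to Trav6-3) and a proximal group at chr14:53443249-53977678 (Trav7-3 to Trav23), which is nearest the Traj. The Traj were grouped by number, which falls from 5' to 3'. The 5' group (40 and above, 17 Traj) lay at chr14:54156133-54177981, the middle group (20 to 39, 19 Traj) at chr14:54179962-54199498 and the 3' group (1 to 19, 15 Traj) at chr14:54200386-54217901, just before Trac. The median annotated exon length was 378 bases for Trav and 61 bases for Traj. The distal and central groups consist largely of duplicated copies: 62 Trav carry a d or n after the family number, 29 of them distal, 33 central and 0 proximal.

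The sequences below show what separates these classes. They come from the GENCODE M21 transcripts of GRCm38 and are written 5' to 3'. For Traj the whole annotated segment is shown, with the first match on the plus strand to TTNGG followed by NNNN and GG in capitals (N is any base), the stretch that encodes the conserved joining-segment motif. This match was present in 44 of 51 Traj (86.3%). Traj40 is the last of the 5' group, Traj20, Traj9 and Traj18 are among those with the highest level in DP cells, and Traj2 is the most 3' Traj.
Traj40: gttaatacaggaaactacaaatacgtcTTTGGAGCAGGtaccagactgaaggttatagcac
Traj20: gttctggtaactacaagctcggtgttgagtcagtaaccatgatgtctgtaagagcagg
Traj18: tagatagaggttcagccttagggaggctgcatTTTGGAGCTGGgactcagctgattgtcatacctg
Traj9: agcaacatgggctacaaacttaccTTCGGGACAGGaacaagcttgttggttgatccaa
Traj2: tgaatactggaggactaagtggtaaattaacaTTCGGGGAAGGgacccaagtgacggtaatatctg
Traj20 has no such match and was still among the Traj with most reads. The 7 Traj without a match had a median level of 4.26 CPM (read counts scaled to the size of each library) in DP turnover, against 5.23 CPM for the 44 with one, and 3.62 against 3.22 CPM in DP autonomy.

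For Trav the last 60 bases are shown, with the last match to TGTGC in capitals where the plus strand holds it (89 of 108 Trav, 82.4%). In 86 Trav a match lies in the last 20 bases, where the codon of the conserved cysteine is expected. In Trav9d-2, Trav9n-2 and Trav9-2 it lies only farther upstream. Trav17, Trav15-2-dv6-2 and Trav21-dv12 are proximal segments called lower in DN3 autonomy. Trav15-1-dv6-1, also proximal, was not called there and is among the Trav with the highest level in DN3 cells. Trav8d-2, Trav14d-3-dv8 and Trav6n-6 are central copies that the authors' deposited table calls higher in DP autonomy and that did not pass in edgeR.
Trav17: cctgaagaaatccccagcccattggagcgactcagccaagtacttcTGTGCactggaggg
Trav15-1-dv6-1: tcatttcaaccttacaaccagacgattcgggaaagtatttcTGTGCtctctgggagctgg
Trav15-2-dv6-2: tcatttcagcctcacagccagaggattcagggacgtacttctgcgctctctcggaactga
Trav21-dv12: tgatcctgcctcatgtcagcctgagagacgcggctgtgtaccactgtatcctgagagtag
Trav8d-2: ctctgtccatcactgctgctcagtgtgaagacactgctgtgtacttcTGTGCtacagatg
Trav14d-3-dv8: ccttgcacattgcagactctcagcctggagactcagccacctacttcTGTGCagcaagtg
Trav6n-6: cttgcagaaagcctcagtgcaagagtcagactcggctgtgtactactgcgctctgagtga
The next pair shows 2 duplicated copies that end in the same 60 bases.
Trav9d-3: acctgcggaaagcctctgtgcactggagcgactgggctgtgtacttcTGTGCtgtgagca
Trav9n-3: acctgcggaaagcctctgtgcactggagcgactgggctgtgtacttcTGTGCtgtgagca
Both members of this pair had 0 reads in all 18 libraries.

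How much of a Trav can be told from other transcripts went with how many reads it received. Of the 108 Trav, 38 had no stretch of 50 bases that is absent from every other annotated transcript, and 35 of these are duplicated copies. Their median was 4 reads over all 18 libraries, and 29 had under 10. The 56 Trav with at least 25% of such stretches unique had a median of 655 reads, and 0 of them had under 10. Across the 108 Trav the unique share and the reads had a Spearman rho of 0.817, a correlation across genes that share libraries and are not independent. The median unique share was 1.25% in the distal group, 0% in the central group and 56.4% in the proximal group. Levels of near-identical copies are therefore uncertain, and 11 Trav without any read are not shown to be silent.

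Total counts ran from 5032273 to 24191044 per library. The labelled cell types were checked against 9 DP markers, whose summed level was 10370 to 12680 CPM in DP libraries and 1097 to 3748 CPM in DN3 libraries, and against 7 DN3 markers, with 2157 to 4353 CPM in DN3 and 176 to 488 CPM in DP libraries. One library stands apart. DN3 turnover library RP1141B held the 3748 CPM of DP markers, and leaving it out lowered the mean level of Cd4 in DN3 turnover from 34.6 to 1.19 CPM and that of Cd8b1 from 165 to 15.5 CPM. This library also held most alpha locus reads of its group, so DN3 turnover values that rest on it are given without it as well.

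Reads of the alpha locus were rare in DN3 cells and common in DP cells. The 160 members took 0.00280% to 0.0381% of all counts in DN3 libraries and 0.129% to 0.176% in DP libraries. In the DP libraries 119 to 136 members had a read. All 51 Traj had one in each DP turnover library, and 48 to 50 did in the DP autonomy libraries. In DN3 turnover 31, 36 and 33 members had a read, and 111 in RP1141B, while the DN3 autonomy libraries had 22 to 46. In bulk RNA, fewer cells that use a segment and less RNA per cell cannot be told apart.

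**Figure D1:**
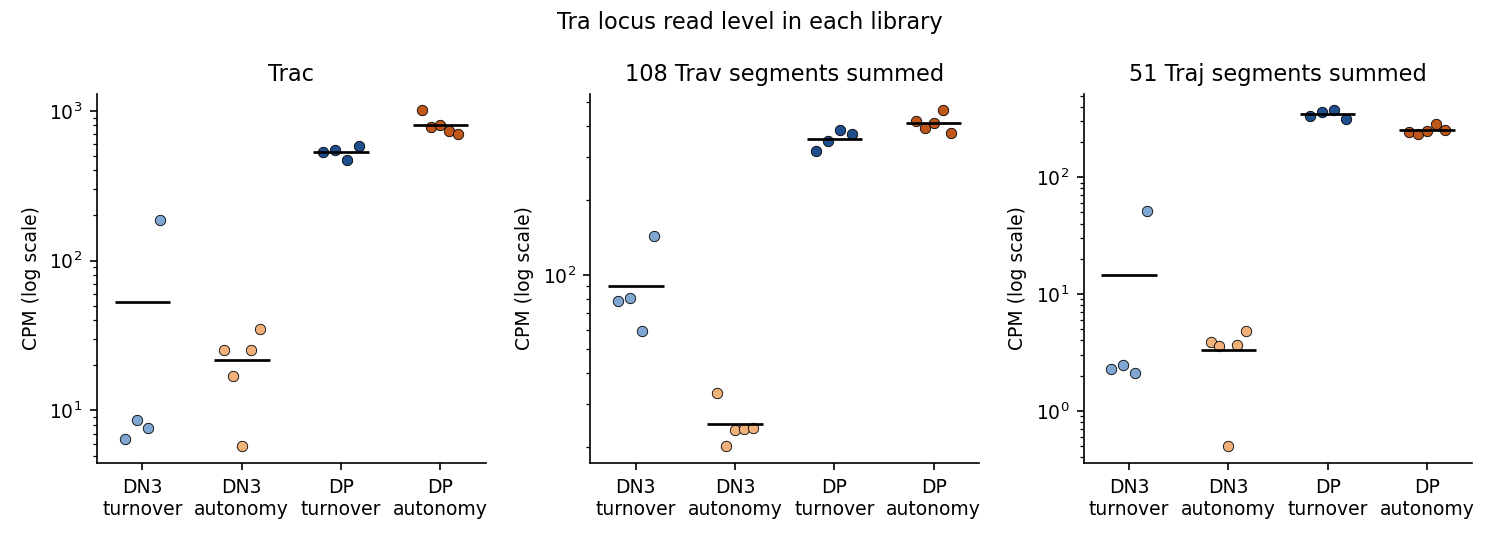
Level of Trac and the summed level of 108 Trav and 51 Traj in each of 18 libraries, in CPM on a log axis, with points for libraries and bars for group means. DP turnover library values of Trac (465.9 to 580.7 CPM) all lie below those of DP autonomy (699.2 to 1007 CPM), the Traj sums lie in the opposite order, and 1 DN3 turnover library (RP1141B) stands above the other DN3 libraries in all 3 panels.

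The first question was how the locus differs between autonomy and turnover in DP cells, where the alpha chain is made. The constant segment rose, the joining segments were read less per constant segment, and the variable reads were spread farther from the Traj array. Trac, which encodes the part shared by every alpha chain, stood at 532.8, 544.6, 465.9 and 580.7 CPM in the DP turnover libraries and at 1007, 782.3, 807.0, 734.9 and 699.2 CPM in the DP autonomy libraries. The groups did not overlap. The log2 change, autonomy over turnover, was 0.59 (SE 0.12, adjusted p = 0.0341, edgeR quasi-likelihood test), from a mean of 531 ± 48.0 CPM (SD, n = 4) to 806 ± 120 CPM (SD, n = 5). Trac was the single member called among 113 of 160 tested, against 1.72% of all 10339 genes called in either direction and 0.861% called higher. The call held without autonomy library RP1137 or RP1138 and was lost without any other library (adjusted p = 0.0555 to 0.101, log2 change 0.50 to 0.63). The authors' deposited table gives Trac a log2 fold change of 0.59 with an adjusted p of 0.000702.

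The summed Traj level went the other way. It was 335.4, 357.9, 373.6 and 314.8 CPM in DP turnover and 243.7, 236.0, 246.1, 283.2 and 252.4 CPM in DP autonomy, with no overlap. For every 100 Trac reads there were 63.0, 65.7, 80.2 and 54.2 Traj reads in turnover and 24.2, 30.2, 30.5, 38.5 and 36.1 in autonomy. The groups did not overlap in this ratio either. The summed Trav level overlapped, at 315.9, 348.5, 386.4 and 373.1 CPM in turnover and 420.7, 392.3, 413.2, 463.7 and 376.0 CPM in autonomy. These sums cover members chosen with results known and carry no test.

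No single Traj passed the test in this comparison (50 of 51 tested, median log2 change -0.70, against a median of -0.02 over all genes tested). Among the 113 members tested 9 had an unadjusted p under 0.05 in edgeR, a count with no share over all genes beside it, and DESeq2 called 4. By mean level, 16 of 17 Traj of the 5' group, 18 of 19 of the middle group and 11 of 15 of the 3' group were lower in autonomy. The tested members had median log2 changes of -1.20 in the 5' group (16 Traj), -0.69 in the middle group (19) and -0.44 in the 3' group (15). In CPM, the 5' group summed to 55.8 to 106.8 in turnover and 36.7 to 53.6 in autonomy, and the middle group to 120.3 to 132.8 and 79.4 to 96.3, neither with overlap. The 3' group summed to 121.0 to 156.2 and 98.5 to 140.3, with overlap. Traj42, in the 5' group, had 4.95, 14.95, 6.62 and 3.24 CPM in turnover and 0.189, 1.38, 3.53, 1.63 and 1.36 CPM in autonomy. Its groups overlapped and its log2 change of -2.20 (SE 0.86) had an adjusted p of 0.205. Traj52 stood at 4.37, 4.26, 4.84 and 4.18 CPM in turnover and at 1.89, 1.06, 2.91, 1.59 and 1.81 CPM in autonomy, without overlap (adjusted p = 0.435).

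Traj2, the Traj nearest Trac, was among the 4 of 15 tested 3' Traj with a log2 change above 0. It had 6.12, 7.19, 5.57 and 5.54 CPM in DP turnover and 9.27, 11.78, 8.003, 17.34 and 21.6 CPM in DP autonomy. Every autonomy library was above every turnover library, and the log2 change of 1.14 (SE 0.48) had an unadjusted p of 0.0336 and an adjusted p of 0.245. In this comparison Traj2, Traj42 and Traj52 were picked after their values were seen.

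As shares of the Traj reads of each library, the 3' group had 38.3%, 33.8%, 41.8% and 44.0% in turnover and 49.6%, 41.7%, 49.8%, 49.5% and 46.2% in autonomy. The groups overlapped because 1 autonomy library (RP1135) lay within the turnover range. The 5' group had 25.6%, 29.9%, 22.6% and 17.7% in turnover and 15.1%, 20.8%, 17.95%, 16.45% and 21.2% in autonomy, with overlap again. Mean shares of the 5' group were 24.0% ± 5.10 (SD, n = 4) and 18.3% ± 2.68 (SD, n = 5).

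**Figure D2:**
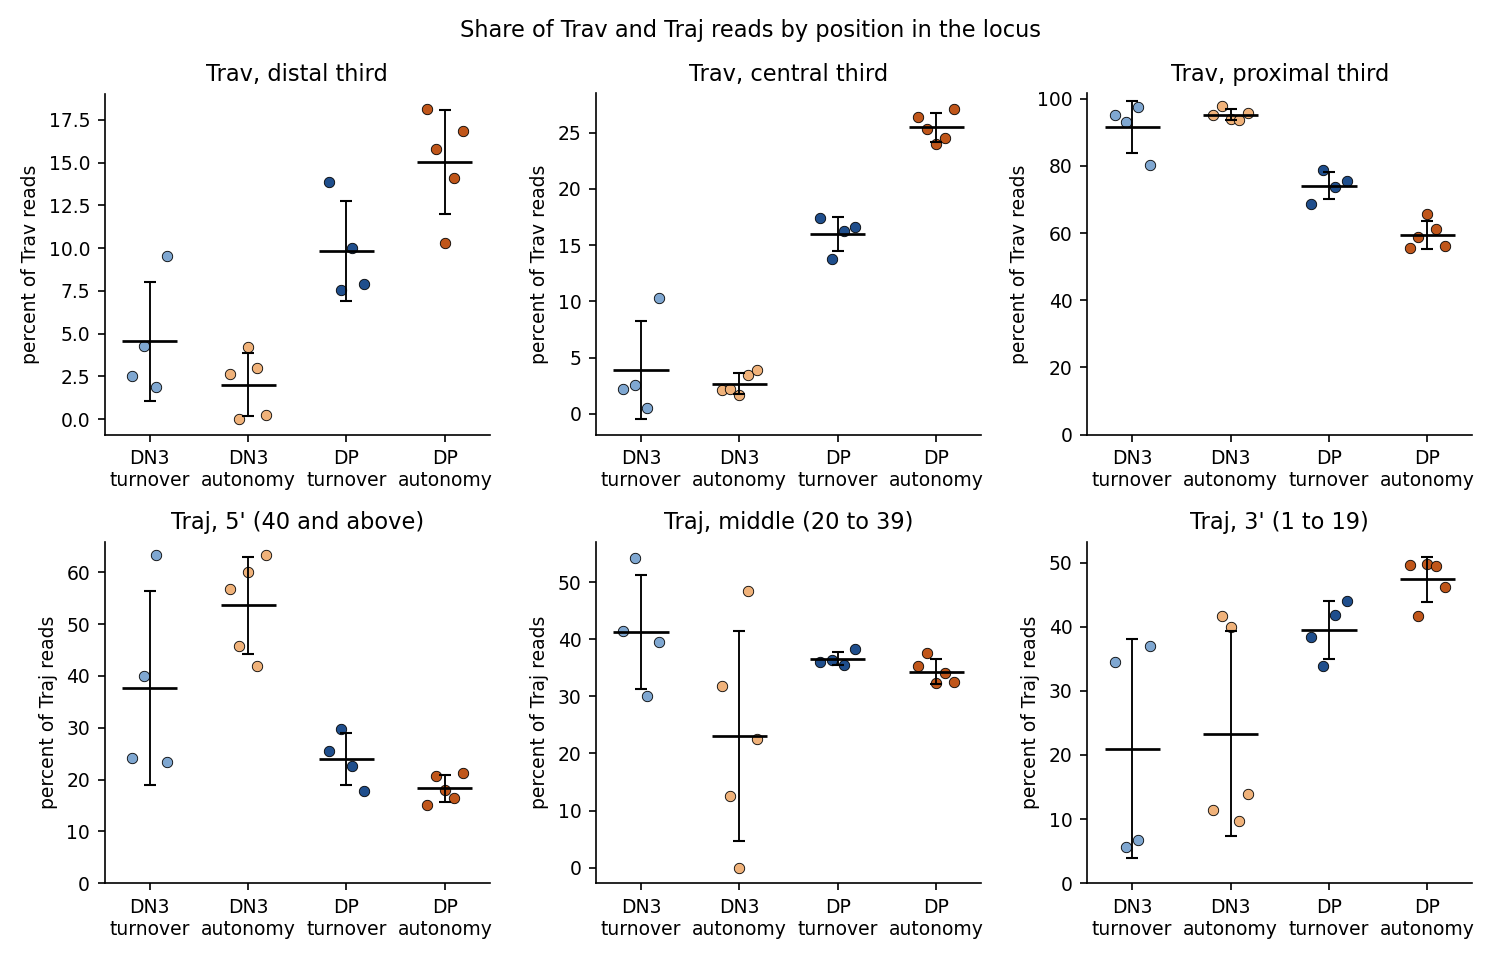
Share of each library's Trav reads (top row) and Traj reads (bottom row) by position in the locus, in percent, with points for libraries, bars for group means and whiskers for SD. In DP cells the proximal Trav share is 68.8% to 78.7% in turnover and 55.5% to 65.7% in autonomy, while the Traj shares overlap between the conditions.

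The Trav reads were divided differently over the array in the 2 conditions. The proximal group held 68.8%, 78.7%, 73.8% and 75.5% of the Trav reads in the DP turnover libraries and 55.5%, 58.9%, 65.7%, 61.4% and 56.0% in the DP autonomy libraries. No autonomy library reached the lowest turnover library, and the means were 74.2% ± 4.14 (SD, n = 4) and 59.5% ± 4.20 (SD, n = 5). The nearest libraries were turnover RP1140A, with a Wilson 95% interval of 66.8% to 70.7%, and autonomy RP1136, with 64.2% to 67.2%. These intervals overlap and cover counting error only. The central group held 13.8% to 17.4% in turnover and 24.0% to 27.1% in autonomy, without overlap. The distal group held 7.52% to 13.9% and 10.3% to 18.1%, with overlap.

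The gap was smaller without the 62 duplicated copies, which are 29 distal, 33 central and 0 proximal Trav, so that leaving them out removes no proximal reads. Without them the proximal share was 91.3% ± 1.85 (SD, n = 4; 88.6% to 92.5%) in turnover and 83.3% ± 4.32 (SD, n = 5; 79.1% to 89.9%) in autonomy, and the groups overlapped. The duplicated copies themselves took 18.8% ± 3.20 (SD, n = 4) of the Trav reads in turnover and 28.6% ± 1.55 (SD, n = 5) in autonomy.

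In CPM, the proximal group was at 264.5 ± 31.9 CPM (SD, n = 4) in DP turnover and 246.2 ± 30.7 CPM (SD, n = 5) in DP autonomy, with overlapping ranges of 217.2 to 285.1 and 210.7 to 284.6 CPM. The central group was at 56.9 ± 6.85 and 105.0 ± 6.85 CPM, in ranges of 48.1 to 62.7 and 99.2 to 113.8 CPM that did not overlap. The distal group was at 34.6 ± 8.09 and 61.9 ± 12.2 CPM, with ranges of 26.2 to 43.8 and 42.5 to 76.3 CPM that overlapped at the edge. By mean level, 23 of 36 central Trav were higher in autonomy, 9 lower and 4 had no read, while 23 distal Trav were higher, 6 lower and 7 had no read. Of the proximal Trav 14 were higher and 22 lower. Among tested members the median log2 change was 0.88 for 13 distal, 0.84 for 16 central and -0.15 for 33 proximal Trav.

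The authors' deposited table calls 3 central copies higher in autonomy. Trav8d-2 had 5.24, 4.49, 3.43 and 3.56 CPM in turnover and 15.52, 10.72, 11.95, 7.64 and 13.44 CPM in autonomy. Trav14d-3-dv8 had 0.291, 3.88, 4.96 and 5.44 CPM against 17.22, 10.93, 13.20, 15.47 and 15.40 CPM. Trav6n-6 had 0.582, 1.48, 1.16 and 1.36 CPM against 5.68, 3.93, 5.72, 5.24 and 6.80 CPM. In all 3 every autonomy library was above every turnover library, with log2 changes of 1.49, 1.96 and 2.22. None passed in edgeR (adjusted p = 0.149, 0.150 and 0.157), and the 3 were picked because the authors' deposited table calls them. Proximal Trav17 went the other way, with 24.9, 32.7, 36.01 and 33.6 CPM in turnover and 11.4, 21.4, 26.1, 10.5 and 24.9 CPM in autonomy (log2 -0.76, SE 0.35, adjusted p = 0.282), and its groups overlapped. Distal Trav1 had means of 4.26 and 11.6 CPM with overlap (log2 1.43, adjusted p = 0.546). The authors' deposited table calls Trav8d-2, Trav14d-3-dv8, Trav6n-6 and Trac, with adjusted p-values of 0.00632, 0.0211, 0.00363 and 0.000702.

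**Figure D3:**
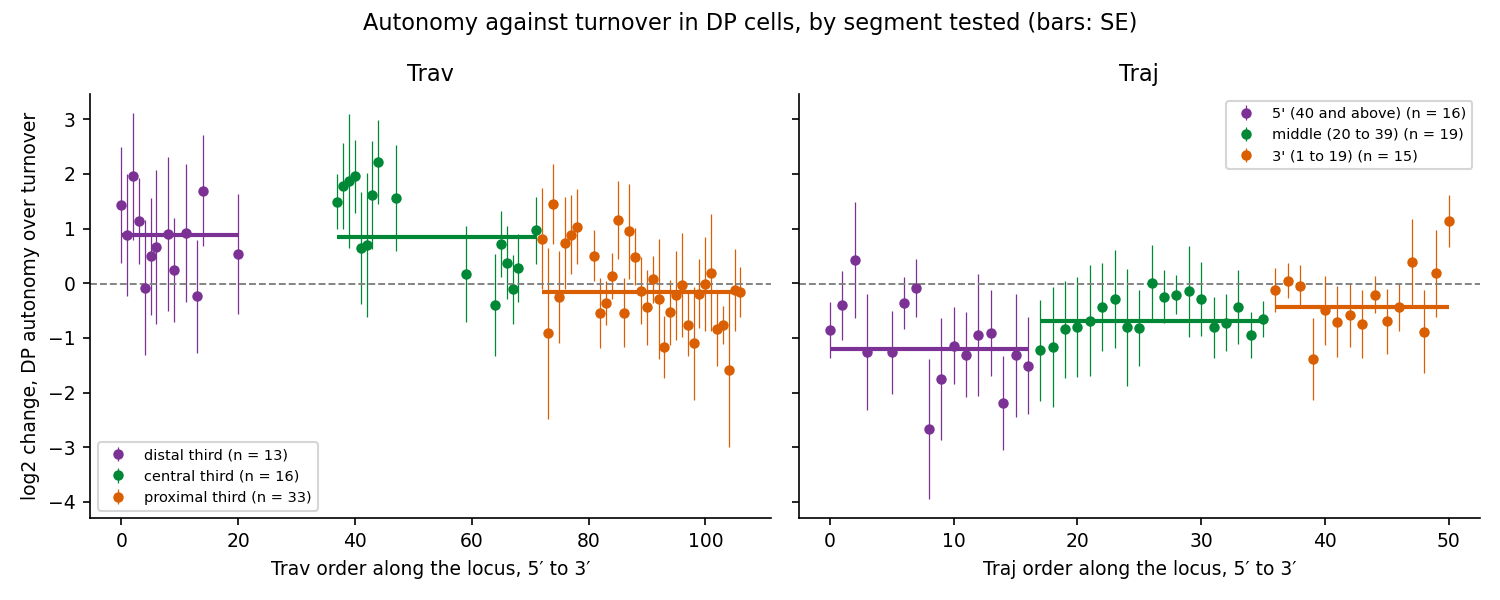
Log2 change of each tested Trav (left) and Traj (right), DP autonomy over DP turnover, in order along the locus, with points for segments, whiskers for SE, solid lines for the median of each positional group and a dashed line for the median of all genes tested (-0.02). The distal and central Trav medians are 0.88 and 0.84, the proximal median is -0.15, and the Traj medians are -1.20, -0.69 and -0.44 from 5' to 3'.

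The segments with the highest levels were proximal Trav and middle or 3' Traj. Per kb of exon, the highest DP turnover Trav were Trav17 (93.2 CPM per kb), Trav13-1 (60.01), Trav14-1 (51.6) and Trav7-5 (39.1). The same 4 led DP autonomy, with Trav14-1 at 57.2, Trav7-5 at 56.1, Trav17 at 55.3 and Trav13-1 at 47.3 CPM per kb. All 4 are proximal. The spread over libraries was wide, as Trav14-1 ran from 13.5 to 34.8 CPM in turnover and from 9.82 to 39.8 CPM in autonomy, and the ranges of neighbours in this order overlap.

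Traj20 (345 CPM per kb), Traj9 (325), Traj21 (306) and Traj27 (280) led DP turnover, and Traj9 (283), Traj18 (278), Traj17 (269) and Traj27 (244) led DP autonomy. Traj9 ran from 16.17 to 21.44 CPM in turnover and from 11.02 to 25.03 CPM in autonomy. Traj18 encodes the joining part of the invariant chain of natural killer T cells in mouse. It stood at 17.18, 13.39, 19.23 and 20.49 CPM in turnover and at 21.00, 18.67, 21.83, 14.79 and 15.40 CPM in autonomy, and the groups overlapped. Spearman correlations of the group means were 0.924 over the 108 Trav and 0.903 over the 51 Traj, a description across genes. Single libraries of different conditions correlated at a median of 0.781 for Trav and 0.788 for Traj, and libraries of the same condition at medians of 0.764 and 0.835 for Trav and 0.824 and 0.815 for Traj.

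Trav varied more between libraries than Traj at like levels. For segments with a mean of 1 to 30 CPM, the median coefficient of variation over the DP turnover libraries was 55.8% for 60 Trav and 30.9% for 50 Traj, beside 55.4% for all 4985 genes at that level. In DP autonomy it was 51.9% for 63 Trav, 38.7% for 46 Traj and 56.9% for all 5035 genes.

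**Figure D4:**
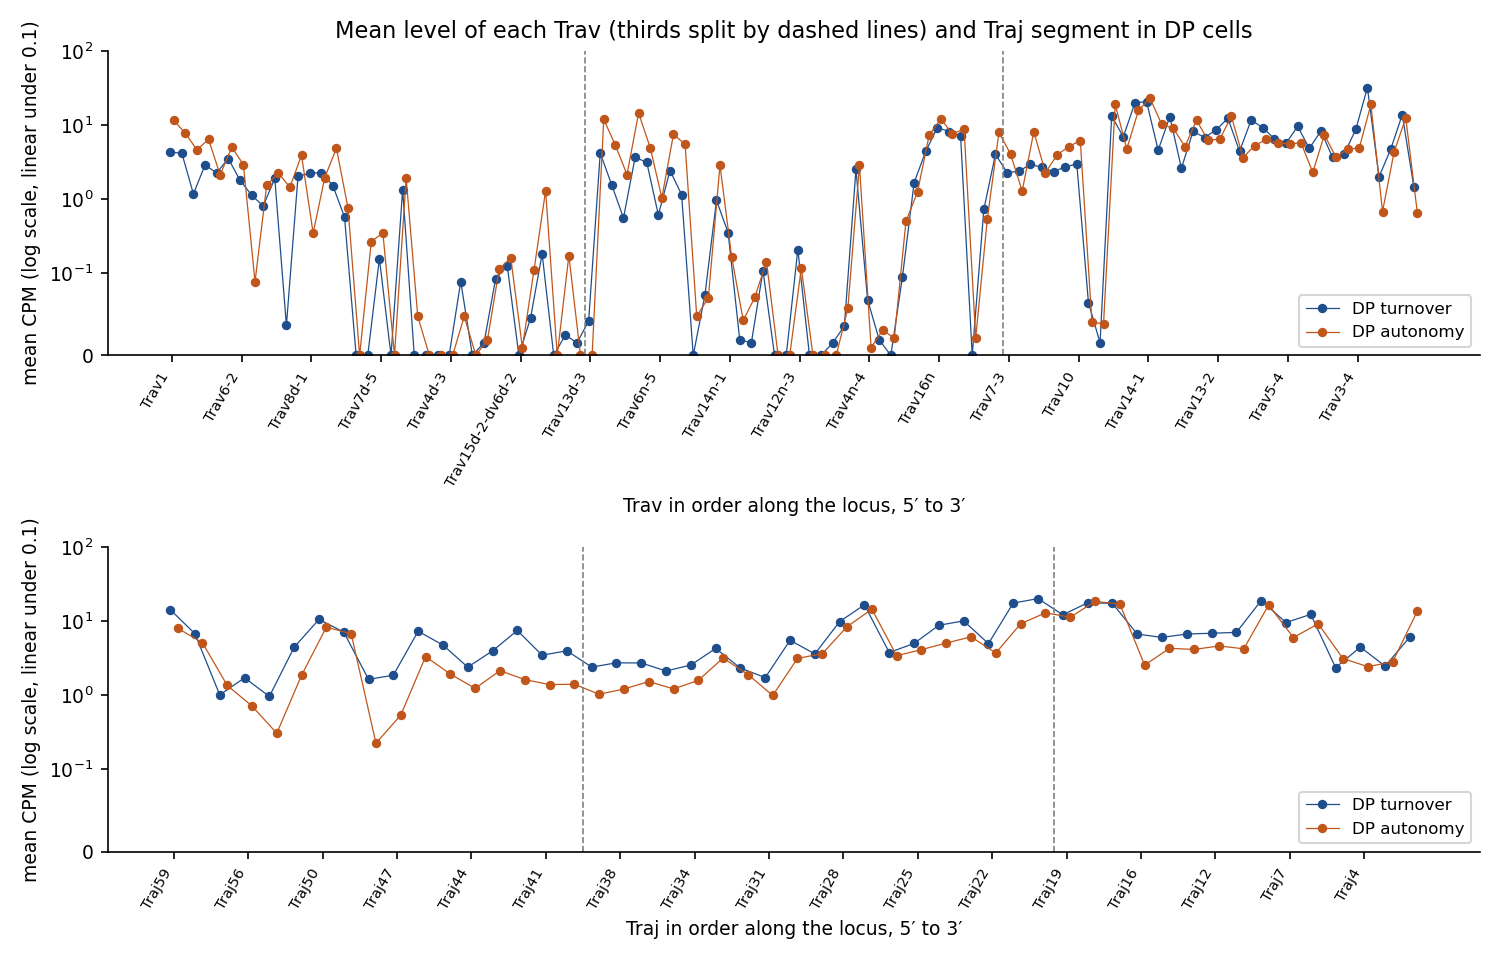
Mean level of each Trav (top) and Traj (bottom) in DP turnover and DP autonomy in order along the locus, in CPM on an axis that is logarithmic above 0.1 and linear below, with dashed lines between positional groups. Of the 30 Trav with under 10 reads over all 18 libraries, 29 have no unique stretch of 50 bases, and the 5' Traj are lower in autonomy in 16 of 17 cases.

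The genes that act on the locus were described as a list of 22: recombination, locus control and the receptor partners of the alpha chain. In DP cells 1 of the 22 rose in autonomy and 5 fell, by edgeR, against 0.861% of all genes tested called higher and 0.861% called lower. Cd3g, a signalling chain of the receptor complex, had means of 928 CPM in turnover and 1507 CPM in autonomy (log2 0.69, SE 0.12, adjusted p = 0.0190). Dntt, which adds bases at the joins, fell by 0.39 on the log2 scale (SE 0.07, adjusted p = 0.0163). Ctcf, an insulator factor, fell by 0.63 (adjusted p = 0.0224) and Rad21, a cohesin subunit, by 0.82 (adjusted p = 0.0494). Myb fell by 0.61 (adjusted p = 0.0296) and Tcf12, an E protein, by 0.52 (adjusted p = 0.0481). The recombinase genes Rag1 (727 to 791.5 CPM) and Rag2 (1232 to 1637 CPM) had adjusted p-values of 0.721 and 0.0959. Their part in the segment levels was not tested.

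In DN3 cells the question was the same, but only 9 of 160 members had enough reads to be tested. Proximal Trav carried 80.2% of the Trav reads in RP1141B and 93.2% to 97.8% in the other DN3 libraries. In autonomy 3 Trav fell and 0 rose, against 14.9% of all 10766 genes called in either direction, 6.53% higher and 8.35% lower. Trav17 stood at 50.05, 40.75, 33.92 and 32.78 CPM in DN3 turnover and at 14.34, 2.82, 12.61, 7.86 and 7.25 CPM in DN3 autonomy. The groups did not overlap, and Trav17 fell by 2.14 on the log2 scale (SE 0.36, adjusted p = 0.00287, edgeR). Without RP1141B it fell by 2.21 (adjusted p = 0.00561), and RP1141B held the lowest of the turnover values.

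The other calls were weaker. Trav15-2-dv6-2 had 9.25, 12.72, 8.92 and 12.05 CPM in turnover and 6.28, 4.60, 1.59, 5.40 and 4.54 CPM in autonomy (log2 -1.27, SE 0.39, adjusted p = 0.0446, and 0.0846 without RP1141B). Trav21-dv12 had 1.74, 2.80, 1.83 and 5.16 CPM against 0.620, 0, 0.0993, 0.587 and 0.835 CPM (log2 -2.66, SE 0.81, adjusted p = 0.0427, and 0.118 without RP1141B). Neither overlapped between the groups, and both carry the dv suffix. Trav15-2-dv6-2 lost its call in 11 of 15 alternatives, among them any turnover library left out, and Trav21-dv12 in 9 of 15, while Trav17 kept its call in all 15. The authors' deposited table calls these 3 and Trav1 lower (adjusted p = 0.0232 for Trav15-2-dv6-2, 5.81e-07 for Trav17, 0.0176 for Trav21-dv12 and 0.0460 for Trav1). Trav15-1-dv6-1 (5.92 to 3.13 CPM) and Trav18 (4.40 to 1.55 CPM) had lower means in autonomy, with overlap and adjusted p-values of 0.194 and 0.124. Without RP1141B their turnover means were 5.62 and 4.11 CPM and their adjusted p-values 0.297 and 0.208.

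These few segments made up most Trav reads of DN3 cells. Trav17 took 57.3% ± 6.62 (SD, n = 3) of the Trav reads in DN3 turnover without RP1141B, 22.8% in RP1141B and 34.9% ± 14.9 (SD, n = 5) in DN3 autonomy. Together with Trav15-1-dv6-1, Trav15-2-dv6-2 and Trav18 it took 84.7% ± 3.28 (SD, n = 3) in turnover without RP1141B, 39.6% in RP1141B and 72.3% ± 6.69 (SD, n = 5) in autonomy. In DP cells the same 4 took 12.0% ± 1.14 (SD, n = 4) in turnover and 8.28% ± 3.63 (SD, n = 5) in autonomy. Per kb of exon Trav17 was at 115.5 CPM in DN3 turnover and 26.3 CPM in DN3 autonomy, above Trav15-2-dv6-2 at 29.0 and 12.1 CPM in both groups. Without RP1141B the turnover values were 121.9 CPM per kb for Trav17 and 27.8 for Trav15-2-dv6-2. The proximal group held 95.4% ± 2.21 (SD, n = 3) of the Trav reads in DN3 turnover without RP1141B, 80.2% in RP1141B and 95.3% ± 1.66 (SD, n = 5) in autonomy.

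Of 10 delta chain genes counted, 6 were tested, of which 3 fell and 0 rose. Trdc, the delta constant segment, had 353.4, 215.6, 286.1 and 294.1 CPM in DN3 turnover and 77.8, 62.2, 151.8, 120.5 and 101.5 CPM in DN3 autonomy, without overlap (log2 -1.49, SE 0.24, adjusted p = 0.00201). Without RP1141B the log2 change was -1.48 (adjusted p = 0.00561). Trdj1, a delta joining segment, fell by 2.49 (adjusted p = 0.0187) and Trdv2-2, a delta variable segment, by 1.51 (adjusted p = 0.0178). Both were named after their values were seen. Without RP1141B the turnover mean of Trdj1 was 3.61 CPM and its adjusted p 0.0265 in edgeR, while Trdv2-2, at 8.55 CPM, no longer passed (adjusted p = 0.0532). Trdv1, Trdv2-1 and Trdv5 had log2 changes below 0 that did not pass. Of the list of 22 genes 5 fell and 0 rose in DN3 cells, against 8.35% of all genes tested called lower and 6.53% called higher, among them Trdc, Trbc1 (log2 -1.68, adjusted p = 0.00161), Dntt (-0.96, adjusted p = 0.00367), Myb (-1.13, adjusted p = 0.00335) and Cd3g (-0.88, adjusted p = 0.0245). Without RP1141B 4 of the list fell and 1 rose, against 6.92% of all 10940 genes tested called lower and 5.95% called higher. Cd3g then no longer passed (adjusted p = 0.0563). The 7 gamma-delta markers summed to 1525 to 1944 CPM in DN3 turnover and 628 to 1118 CPM in DN3 autonomy. Most of the turnover sum was Tcrg-C1, which is also among the DN3 markers. Without RP1141B its DN3 turnover mean was 1380 CPM, beside 285 CPM for Trdc. Of the 7 gamma-delta markers Zbtb16 was at 0 in turnover and Maf at 0 in autonomy, 4 were tested and 3 fell, Trdc among them. Their part in the Trav levels was not tested.

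**Figure D5:**
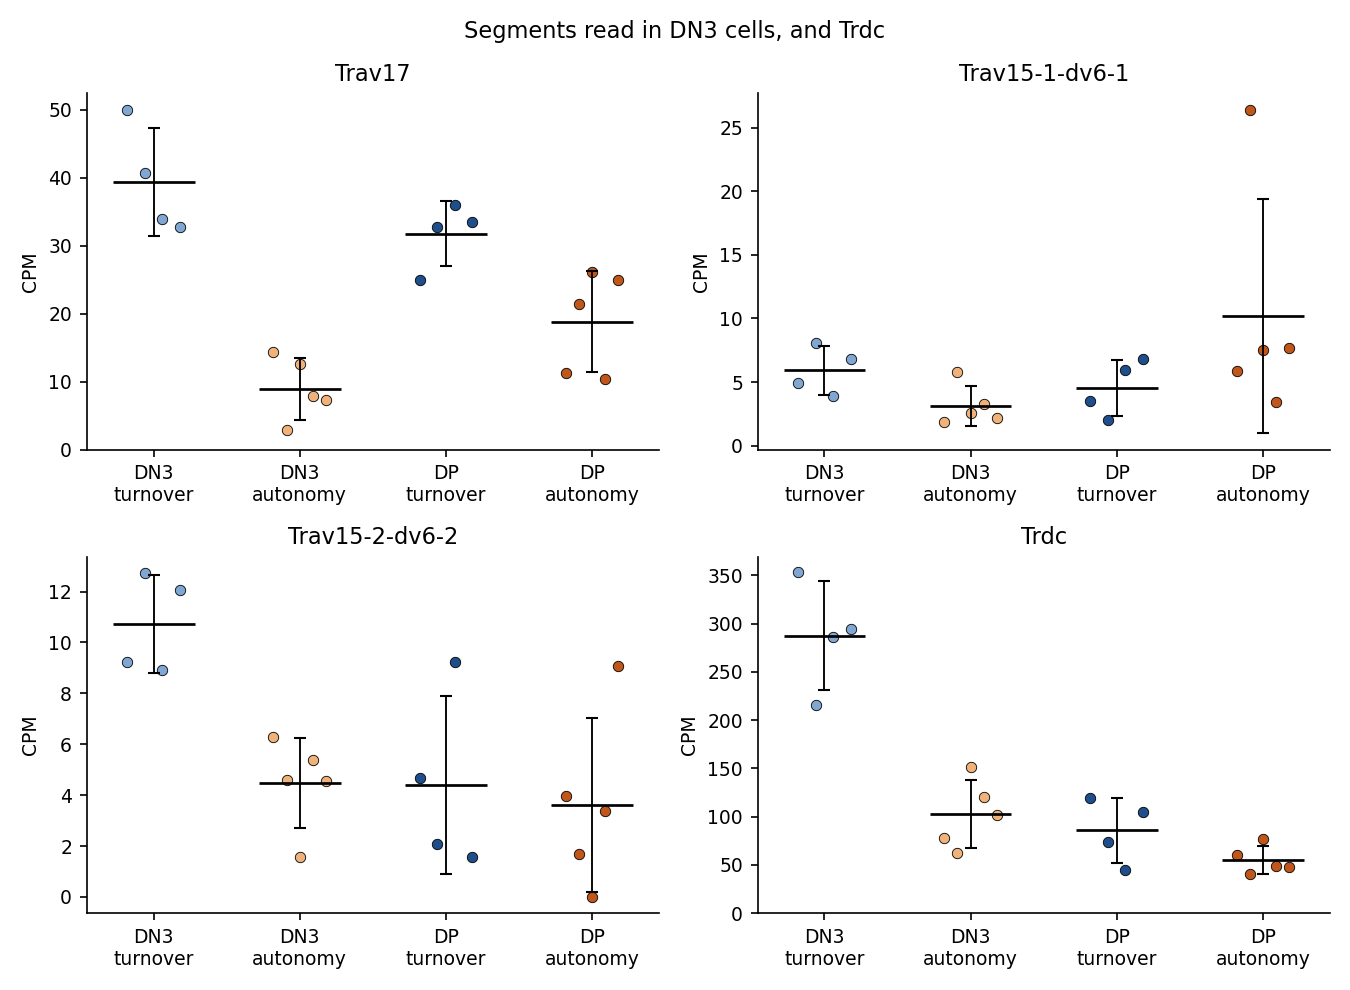
Level of Trav17, Trav15-1-dv6-1, Trav15-2-dv6-2 and Trdc in each of 18 libraries, in CPM, with points for libraries, bars for group means and whiskers for SD. Trav17, Trav15-2-dv6-2 and Trdc are lower in every DN3 autonomy library than in any DN3 turnover library, and 1 DP autonomy library holds 26.42 CPM of Trav15-1-dv6-1.

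Trac in DN3 cells turned with 1 library. It stood at 6.48, 8.60, 7.66 and 187.7 CPM in DN3 turnover, the last in RP1141B, and at 25.5, 16.9, 5.76, 25.5 and 35.0 CPM in DN3 autonomy. The log2 change was -1.28 (SE 0.89, adjusted p = 0.343) with RP1141B and 1.51 (adjusted p = 0.0525) without it. Neither passed. The summed Traj level was 2.29, 2.45, 2.11 and 50.97 CPM in DN3 turnover, the last again in RP1141B, and 3.89, 3.57, 0.496, 3.64 and 4.85 CPM in autonomy, so Traj shares rest on 5 to 93 reads in each DN3 library other than RP1141B. The 5' group took 37.7% ± 18.7 (SD, n = 4) of them in turnover, 42.5% ± 19.7 (SD, n = 3) without RP1141B and 53.6% ± 9.28 (SD, n = 5) in autonomy. The summed Trav level was 78.3, 80.4, 59.4 and 143.7 CPM in turnover and 33.3, 20.2, 23.4, 23.7 and 23.9 CPM in autonomy, without overlap with or without RP1141B. For every 100 Trac reads there were 35.37, 28.46, 27.52 and 27.15 Traj reads in DN3 turnover and 15.28, 21.05, 8.62, 14.29 and 13.88 in DN3 autonomy. As in DP cells this ratio did not overlap between the conditions. It rests on few Traj reads outside RP1141B and carries no test.

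From DN3 to DP most tested members of the locus rose. In turnover 87 of 115 tested members rose and 0 fell, against 34.9% of all 11521 genes called in either direction and 15.8% called higher. In autonomy 110 of 115 rose and 0 fell, against 49% in either direction and 23.7% higher. Most members could be tested only because of their DP reads, so these counts describe the members and are no separate support. By class, 40 of 64 Trav, 46 of 50 Traj and Trac rose in turnover, and 60 of 64 Trav, 49 of 50 Traj and Trac rose in autonomy. Trac rose by 3.34 on the log2 scale in turnover (adjusted p = 0.00332), by 6.16 without RP1141B (adjusted p = 1.04e-08), and by 5.20 in autonomy (adjusted p = 1.93e-05). Without RP1141B 101 members rose in turnover, against 14.4% of all 11834 genes tested called higher.

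Among members at a mean of at least 1 CPM in DP cells, the 6 largest rises in turnover were Trav7-6, Traj40, Trav6-4, Trav6-1, Trav8d-1 and Trav7d-3. All 6 had no read in any of the 4 DN3 turnover libraries, so each fold is given as a lower bound, taking 3 counts in every such library as the floor. Trav7-6 was at 3.06, 8.98, 3.98 and 3.24 CPM in DP turnover, at least 21.3-fold higher than in DN3 turnover. Traj40 was at 5.39, 3.99, 4.04 and 2.41 CPM, at least 17.5-fold higher. The bounds of Trav6-4, Trav6-1, Trav8d-1 and Trav7d-3 were 10.5-fold, 9.94-fold, 9.82-fold and 8.37-fold. Trav6-4 was read in only 2 of the 4 DP turnover libraries, at 3.80 and 5.65 CPM, and the adjusted p of the 6 ran from 0.000839 to 0.0269. Without RP1141B it ran from 0.00283 to 0.0554, and Trav8d-1 no longer passed. The order of the rises also rests on that library. With RP1141B left out, Traj9 (log2 10.85) and Trav7-5 (log2 10.34) had larger rises than Trav7-6 (log2 8.89). None of these had a read in the DN3 turnover libraries left, so the sizes are uncertain. Over all alternatives Trav8d-1 lost its call in 7 of 23 and Trav6-4 in 5 of 24. Trav6-1 and Trav7d-3 each lost it in 1 of 24, with the RP number as a block, which also ended the calls of Trav8d-1 and Trav6-4.

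In autonomy the largest rises were Trav7-5, Traj2, Trav16n, Trav8d-2, Trav1 and Trav8n-2, all again with no read in the 5 DN3 autonomy libraries. Trav7-5 was at 16.27, 11.04, 32.64, 17.00 and 17.52 CPM in DP autonomy, at least 62.3-fold higher. The bounds were 44.8-fold for Traj2, 39.6-fold for Trav16n, 39.1-fold for Trav8d-2, 38.2-fold for Trav1 and 24.0-fold for Trav8n-2, with adjusted p-values from 1.44e-05 to 0.000475. Trav1, the most distal segment, was at 15.52, 1.70, 10.71, 14.17 and 15.86 CPM there.

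Of the 34 proximal Trav tested 22 rose in turnover and 12 did not pass, 4 of these with a log2 change below 0. With RP1141B left out fewer failed: only Trav17, Trav15-2-dv6-2, Trav15-1-dv6-1, Trav18, Trav13-4-dv7 and Trav23 did not pass. Trav17 was at 39.4 CPM in DN3 and 31.8 CPM in DP cells (log2 -0.31, adjusted p = 0.591), Trav15-2-dv6-2 at 10.7 and 4.39 CPM (adjusted p = 0.276), Trav15-1-dv6-1 at 5.92 and 4.55 CPM (adjusted p = 0.685) and Trav18 at 4.40 and 1.99 CPM (adjusted p = 0.493). Without RP1141B their adjusted p-values were 0.593, 0.380, 0.811 and 0.614. In autonomy Trav17 rose by 1.07 on the log2 scale, from 8.98 to 18.9 CPM (adjusted p = 0.0193), and Trav15-1-dv6-1 by 1.71, from 3.13 to 10.2 CPM (adjusted p = 0.0192). The DP autonomy mean of Trav15-1-dv6-1 includes library RP1135 at 26.42 CPM, with the next at 7.70 CPM. Trav15-2-dv6-2 (4.48 to 3.62 CPM) and Trav18 (1.55 to 0.676 CPM) had adjusted p-values of 0.766 and 0.378. The turnover and autonomy contrasts use different libraries, and each value is given on its own.

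Of the 22 listed genes 12 rose and 4 fell from DN3 to DP in turnover, against 15.8% of all genes tested called higher and 19.1% called lower. In autonomy 12 rose and 2 fell, against 23.7% and 25.2%. Rag1 rose by 2.73 and 2.96 on the log2 scale and Bcl2l1, a survival gene, by 3.21 and 2.96. Trdc fell by 1.75 in turnover (adjusted p = 0.000161) and by 0.91 in autonomy (adjusted p = 0.00760). Ptcra, the surrogate alpha chain that pairs with beta before the alpha chain exists, fell by 2.62 and 2.33.

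Whether the autonomy effect itself differs between DP and DN3 was tested as an interaction. Of 115 members 1 passed, against 5.49% of all genes called, 2.88% higher and 2.61% lower. With RP1141B included 40 had an unadjusted p under 0.05, a count with no share over all genes beside it. With DN3 RP1141B left out, the difference of some members could not be estimated, such as Trav8d-2 (SE 1426) and Trav7-1 (SE 1261). Trav6n-6 had a difference of 7.65 on the log2 scale (SE 2.12, adjusted p = 0.0460). Its reads in DN3 cells all came from RP1141B (1.72 CPM), and without that library the difference could not be estimated either (2.24, SE 3753). For Trac the difference was 1.87 (adjusted p = 0.319) and -0.95 without RP1141B (adjusted p = 0.289). Of the 22 listed genes 3 had a higher and 1 a lower change in DP than in DN3 cells: Cd3g (1.56, adjusted p = 0.00276), Cd3d (0.74, adjusted p = 0.0432), Cd247 (0.73, adjusted p = 0.0460) and Rad21 (-1.20, adjusted p = 0.0209). Without DN3 RP1141B Cd3d and Cd247 no longer passed (adjusted p = 0.108 and 0.114), while Cd3g (0.00819) and Rad21 (0.0471) did. These counts stand against 2.88% of all genes called higher and 2.61% lower.

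Markers of other cells were low or differed with condition. The 7 markers of mature single-positive T cells summed to 192 to 337 CPM in DP libraries. In DN3 libraries they summed to 420 to 609 CPM in turnover and 212 to 469 CPM in autonomy. The 6 B cell markers summed to 24.7 to 66.8 CPM in DP libraries and 13.5 to 91.5 CPM in DN3 libraries, nearly all from Cd79b. The 5 myeloid markers summed to 4.39 to 33.9 CPM in DP turnover and 14.5 to 76.3 CPM in DP autonomy, and to 22.3 to 36.8 CPM and 5.31 to 16.8 CPM in DN3 turnover and autonomy. The 5 natural killer markers summed to 1225 to 1702 CPM in DN3 turnover and 1832 to 2520 CPM in DN3 autonomy, mostly Gzma, with Ncr1 at 0 in turnover. Of the 2 tested in DN3 cells 1 rose and 1 fell, against 6.53% of all genes called higher and 8.35% lower. With RP1141B left out, Gzma had a log2 change of 0.59 (adjusted p = 0.0399, edgeR) and Nkg7 of -2.86 (adjusted p = 0.0273). In DP libraries the 5 natural killer markers summed to 94.7 to 430.2 CPM. The part of these markers in the alpha locus levels was not tested.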

How the data were processed

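The authors deposited unnormalised read counts for each Ensembl gene, per the file headers. The submitters' processing notes list the tools FastQC, HISAT2, featureCounts and DESeq2 and the builds mm10 and GRCm38. Versions, the strand setting and the treatment of reads that match several genes are not stated there. A read across a Trav to Traj join does not match the genome end to end, and how such reads were counted is likewise not stated. The authors also deposited log2 fold changes with p-values and adjusted p-values from DESeq2 for each cell type, used here for names and as values credited to them.

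Counts were analysed in R 4.3.3 with edgeR 4.0.16 (glmQLFit, glmQLFTest), TMM scaling, filterByExpr and Benjamini-Hochberg adjustment over all genes tested at 0.05, within each cell type alone or in 1 model of all 18 libraries for DP against DN3 and for the difference. The SE is the log2 change divided by the square root of F. CPM values use TMM factors over all 18 libraries. Folds against a group with no read use a floor of 3 counts per library, which covers counting error only. The fit was tested on simulated data. Alternatives were DESeq2 1.42.0, RLE factors, no filter, scaling without receptor segments, joint fits, a replicate block, summed A and B libraries and each library left out. Uniqueness used stretches of 50 bases in GENCODE M21. Trac, the 6 largest passing rises and falls per comparison at 1 CPM or more and the 4 highest Trav and Traj per group by CPM per kb are named by rule, and others are named for their place in the DP or DN3 pattern after their values were seen. The members, the positional groups and the gene lists were chosen with earlier results of these data known.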

Additional observations from a re-analysis of the deposited data

Results flagged for a closer look

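Values were examined for a library far from the rest of its group in 40 groups of 4 or 5 libraries, of which chance alone flags about 1 in 20. The summed Traj level of DN3 turnover library RP1141B was 50.97 CPM, with the next library at 2.45 CPM, and Trac in the same library was 187.7 CPM, with the next at 8.60 CPM. That library also holds the highest sum of DP markers among DN3 libraries, and the part of those markers in its Trac and Traj levels was not tested. The summed Trav level of DN3 autonomy library RP1133 was 33.27 CPM, with the next at 23.9 CPM. Trav15-1-dv6-1 was at 26.42 CPM in DP autonomy library RP1135, with the next at 7.70 CPM. The effect of autonomy on Trav6n-6 differed between DP and DN3 cells by 7.65 on the log2 scale. This difference rests on DN3 turnover library RP1141B, without which it could not be estimated (2.24, SE 3753).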

How the results depend on the processing

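In DN3 cells 3 members passed, against 1 with the A and B libraries of a number summed, 11 in a fit of all 18 libraries, and 1 to 2 with each library left out (1 without autonomy RP1133 or RP1137 or any turnover library, Trav17 in each case). In DP cells 1 passed, against 4 with DESeq2, 0 with A and B summed, 0 in the fit of all 18 libraries and 0 to 1 with each library left out. DP against DN3 in turnover gave 87, against 46 with A and B summed and 62 to 101 with each library left out, and in autonomy 110 against 107 to 113. The difference gave 1, against 9 with DESeq2, 2 without the filter, 0 without both RP1141B libraries and 0 to 7 with each library left out. Deviations of same-numbered DN3 and DP libraries from their group means correlated at 0.00968 to 0.0439. These values compare 2 cell types and cannot show whether RP numbers pair the samples, which the labels do not say. With the replicate block 74 members passed in turnover, 94 in autonomy and 0 in the difference, and 4 of the 6 largest rises named in turnover (Trav6-1, Trav6-4, Trav7d-3 and Trav8d-1) did not pass.

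The proximal Trav share in DP cells was 14.7 percentage points lower in autonomy (-14.7), -7.99 without duplicated copies and -16.5 to -13.2 with each library left out. In DN3 cells it was 3.72, -0.0696 without RP1141B and up to 5.74 with other libraries left out. The 5' Traj share was -5.66 in DP (-7.73 to -3.69) and 15.9 in DN3 (11.1 to 24.4, and 4.21 without the Traj with most reads). Among 29 single-gene results under 576 alternatives, 510 kept their direction and side of the threshold, 61 lost the call and 5 reversed: Trac in DN3 (-1.28; -1.65 to 1.51 with each library left out, highest without RP1141B), its difference (1.87; -0.95 to 2.24, lowest without DN3 RP1141B, and -0.87 without both RP1141B libraries), and Trav15-2-dv6-2 in DP (-0.29; -0.97 to 0.37, with 0.0327 without autonomy RP1136 and 0.37 without turnover RP1141A). Where values changed, the cause was not tested. In DN3 libraries 3 counts equal 0.157 to 0.446 CPM, and only 9 members had reads enough for a test.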
